A study of Mus musculus with 18 samples.

Results

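The transcriptome of proliferating C2C12 cells that overexpress the spliced form of the long noncoding RNA MUNC was compared with that of control cells in the same growth medium. The comparison took the 3 MUNC spliced libraries minus the 3 control libraries for each gene, on a log2(FPM + 1) scale. FPM here is the authors' fragment count divided by a factor per library. All 13869 genes with at least 0.5 FPM in at least 3 of the 18 libraries of the series were tested, out of 35275 genes listed. Control cells carried the genotype label wild-type, and both groups came from a C2C12 stock labelled PAX7 negative, kept in 20% fetal bovine serum and harvested at about 80% confluency. A further line that overexpresses the genomic, unspliced form of MUNC (MUNC genomic) was grown and harvested in the same way, with 3 libraries. It served to see whether a difference was shared. All 3 groups were also sampled after 3 days in differentiation medium with 2% horse serum. All 18 libraries entered the filter and the main fit, so the spread behind each p-value was estimated from every group. Groups were taken from the sample titles, and the source names do not always match them. In growth medium the source name says myotubes for MUNC spliced replicates 2 and 3 and for 2 MUNC genomic libraries, and myoblasts for MUNC spliced replicate 1 and the 3 control libraries, while the 3 control libraries after differentiation are also called myoblasts there. The labels do not say what vector was used, whether control cells carried an empty one, or whether each line was 1 clone or a pool.

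C2C12 is a line of mouse myoblasts, the proliferating precursors of skeletal muscle, which leave the cell cycle and fuse into multinucleated myotubes when serum is withdrawn. Commitment to muscle is driven by the basic helix-loop-helix factors Myf5 and Myod1, while Myog, Mef2 factors and Myf6 act later, when sarcomere genes are switched on. These factors pair with E proteins and bind the E-box motif, and Id proteins block them by capturing the E proteins. MUNC is transcribed from the distal regulatory region upstream of Myod1 and is known as an enhancer RNA that promotes muscle gene expression.

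The MUNC gene is annotated in RefSeq as Gm45923, at chr7:46371403-46372492 on GRCm38.p6, a span of 1090 bases whose end lies 3982 bases before the start of Myod1. No row of the table used here carried this gene, so its level, and with it the overexpression, was not checked. Depth was 58141223 to 68235989 reads in the control libraries and 38416702 to 52642149 reads in the MUNC spliced libraries, and a gene without reads could have had at most 0.0757 FPM. Across the tested genes, Pearson's r was 0.986 to 0.991 between libraries of the same group and 0.944 to 0.968 between libraries of the compared groups. The summed level of 8 myoblast markers was 374 to 517 FPM in control and 675 to 987 FPM in MUNC spliced cells, but Myod1 and the Tead cofactor gene Vgll2, both among the 8, were at or near 0 in control cells. Pax7, the satellite cell factor, stood at 0.0171, 0 and 0 FPM in control and 0.0505, 0.147 and 0 FPM in MUNC spliced libraries. Of the defining markers of other cell types, the neuronal markers Elavl4 and Gad1, the fibroblast markers Thy1 and Tcf21, the macrophage markers Adgre1 and C1qa and the smooth muscle factor Myocd were at 0 reads in all 6 libraries, and the summed epithelial, endothelial and Schwann cell markers reached at most 0.522, 1.74 and 3.79 FPM. Other marker sums were high or moved with the group. The fibroblast markers summed to 1884 to 2879 FPM in control and 2858 to 5836 FPM in MUNC spliced libraries, mostly Col1a1, and Pdgfra, another marker of that list, was called higher (log2 difference 0.68, adjusted p = 0.0102). The smooth muscle markers, mostly Acta2, summed to 1238 to 2125 FPM and 1797 to 2596 FPM in the same groups, and the macrophage markers to 4.47 to 6.35 FPM and 3.12 to 4.59 FPM. The part of such cells in the results was not tested.

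In growth medium, 4929 genes differed between MUNC spliced and control cells at a Benjamini-Hochberg adjusted p under 0.05 in limma, which was 35.5% of the genes tested. Of these, 2530 genes (18.2%) were higher and 2399 (17.3%) lower in MUNC spliced cells, and these shares are the background against which each gene group below is read. The balance of calls depended on the scaling, since 51.3% of them were higher with the values as deposited, 66.1% when libraries were rescaled to equal sums and 45.4% in edgeR on the recovered reads. The median difference of all tested genes was -0.02 on the log2 scale. A change of at least 1 on the log2 scale was called for 714 higher and 393 lower genes, and a change of at least 4 for 22 higher and 11 lower genes. The 3 control and 3 MUNC spliced libraries did not overlap for 6041 genes (43.6%). The authors' deposited table of this comparison called 4302 genes, and 3822 genes were called in both, all with the same sign.

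Because of the source names, the fit was repeated without MUNC spliced replicates 2 and 3, a setting chosen after the data had been seen. It leaves 1 MUNC spliced library, whose spread is assumed to be that of the other groups, against 3 controls, and 2413 genes were called, 1387 higher and 1026 lower. Myod1 and Myog were still called, with differences of 4.2 (adjusted p = 0.000152) and 3.38 (adjusted p = 0.00208), as were Ttn, the titin gene (2.71, adjusted p = 0.0168), and Chrna1, of the acetylcholine receptor (3.19, adjusted p = 2.95e-05). Myh3, embryonic myosin, lost its call (0.90, adjusted p = 0.401). Of the lists described below, the counts called higher were 3 myogenic regulators, 1 sarcomere, 4 neuromuscular synapse, 4 excitation-contraction coupling and 3 dystrophin complex genes, and the counts called lower were 18 interferon-stimulated, 13 ribosomal protein, 8 glycolysis and hypoxia, 5 Atf4, 1 oxidative phosphorylation, 0 replication and 0 mitosis genes. Of 216 called differences given for single genes, 152 stayed called and 0 changed sign. How much of the drop came from the smaller number of libraries was not tested.

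Among the 12 largest rises were 3 semaphorins, both heparan sulfate endosulfatases, a matrix protein and several transcriptional regulators. Fndc1, which encodes a secreted protein with fibronectin type III domains, stood at 0.0171, 0.0354 and 0 FPM in the control libraries and at 213, 376 and 180.0 FPM in the MUNC spliced libraries. Its difference of 7.91 (SE 0.22, adjusted p = 2.23e-13) was the largest rise under the rule for named genes, and its level in MUNC genomic cells was 0.0143 ± 0.0248 FPM (SD, n = 3). Sfmbt1, a chromatin protein with malignant brain tumour repeats, was present in control cells at 38.3, 32.6 and 38.2 FPM and reached 1719, 1453 and 1332 FPM in MUNC spliced cells, a 41.3-fold ratio of means. MUNC genomic cells kept Sfmbt1 at 34.9 ± 2.07 FPM (SD, n = 3), and the difference between both MUNC lines was called (5.38, adjusted p = 1.01e-14). Its paralog Sfmbt2 rose by 0.62 (adjusted p = 0.00611).

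The secreted guidance cues Sema3c and Sema3d and the membrane-bound Sema6a were near 0 to a few FPM in control cells. Sema3c went from 0.4097, 0.991 and 0.154 FPM to 61.7, 162 and 51.3 FPM (log2 difference 5.78, SE 0.45, adjusted p = 5.87e-08). Sema3d went from 3.02, 1.43 and 0.4302 FPM to 87.1, 167 and 37.8 FPM, and Sema6a from 0.171, 0.442 and 0.0615 FPM to 26.2, 69.2 and 29.2 FPM, with log2 differences of 5.11 and 4.99. In all 3 genes every MUNC spliced library lay above every control library, with replicate 2 the highest. Sulf1 and Sulf2, the extracellular enzymes that trim sulfate groups from heparan sulfate chains and so alter growth factor binding, rose by 4.95 (SE 0.33) and 4.68 (SE 0.23). Sulf2 was at 7.78, 3.95 and 3.47 FPM in control and 165, 159.8 and 122 FPM in MUNC spliced libraries, and Sulf1 at 0.393, 0.248 and 0.492 FPM and 35.8, 55.4 and 35.6 FPM.

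Car3, a carbonic anhydrase abundant in slow muscle fibres, went from 9.901, 5.93 and 1.35 FPM to 509, 590.1 and 111 FPM, and replicate 3 was the lowest library in both groups (log2 difference 5.85, adjusted p = 4.09e-06). Sorbs2, an adaptor of stress fibres and Z-discs, rose by 5.04 and Pogk, a KRAB domain protein, by 4.85, the latter from 1.52, 1.47 and 1.98 FPM to 72.6, 74.8 and 77.98 FPM. Sox11, a SoxC transcription factor of embryonic progenitors, and Cd200, an immunoglobulin family surface protein, rose by 4.90 and 4.87. Both of these genes were also high in the other MUNC line. Sox11 was at 36.8, 31.5 and 42.04 FPM in MUNC spliced and 34.8, 34.8 and 32.8 FPM in MUNC genomic libraries (difference 0.10, adjusted p = 0.857), and Cd200 at 29.6, 68.96 and 22.7 FPM and 71.3, 124 and 19.8 FPM (difference -0.63, adjusted p = 0.362).

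**Figure D1:**
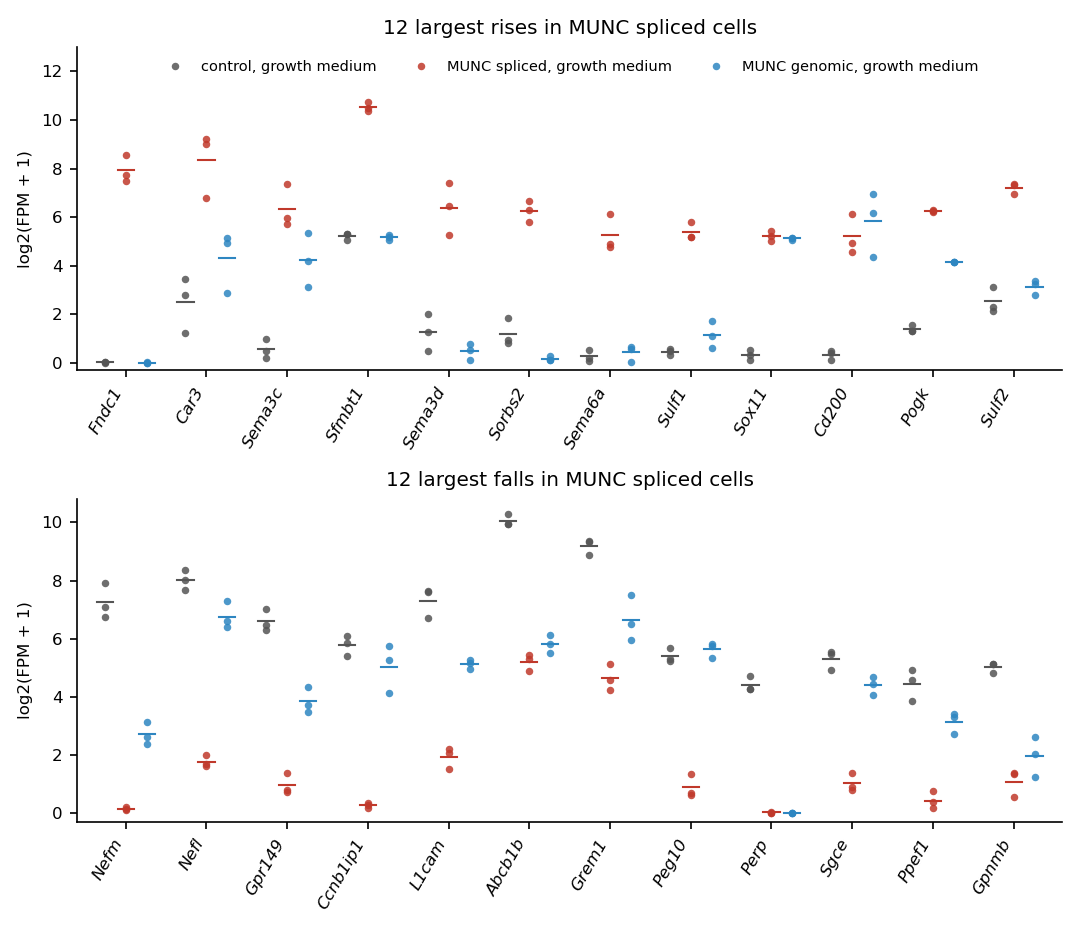
Level of the 12 genes with the largest rise and the 12 with the largest fall, as log2(FPM + 1), in each growth medium library of control, MUNC spliced and MUNC genomic cells. Points are libraries and short lines are group means (n = 3). Control and MUNC spliced libraries do not overlap for any gene drawn, and MUNC genomic libraries sit near the control for genes such as Fndc1, Sfmbt1 and Peg10 and near the MUNC spliced libraries for Sox11, Cd200 and Perp.

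The 12 largest falls took in neurofilaments, adhesion and transport proteins and an imprinted pair. Nefm and Nefl, the medium and light neurofilament subunits of the axonal cytoskeleton, were abundant in control cells, at 136, 106 and 242 FPM and 259.7, 206 and 329 FPM. In MUNC spliced cells Nefm stood at 0.101, 0.0733 and 0.162 FPM and Nefl at 2.27, 2.09 and 2.98 FPM, falls by 7.10 (SE 0.25, adjusted p = 4.12e-12) and 6.25 (SE 0.23, adjusted p = 1.00e-11) on the log2 scale. The annotated spans of both genes overlap on chromosome 14, so the split of reads between them is uncertain. MUNC genomic cells lay in between for Nefl, at 83.1, 96.8 and 155 FPM, a level that differed from that in MUNC spliced cells (-4.99, adjusted p = 6.07e-11).

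L1cam, an adhesion molecule of growing axons, fell by 5.38, from 103, 197 and 194 FPM to 3.21, 1.89 and 3.63 FPM. Gpr149, an orphan receptor, and Ccnb1ip1, a ubiquitin ligase known from meiotic recombination, fell by 5.64 and 5.52. Ccnb1ip1 stood at 57.3, 41.7 and 66.99 FPM in control, 0.278, 0.128 and 0.216 FPM in MUNC spliced and 37.5, 16.4 and 52.3 FPM in MUNC genomic libraries, so only the MUNC spliced libraries were near 0 (difference between the MUNC lines -4.77, adjusted p = 1.07e-09). Grem1, a secreted antagonist of BMP ligands, fell by 4.54, from 647, 474 and 651 FPM to 33.8, 18.1 and 22.8 FPM. Perp, a desmosomal protein and p53 target, had 25.4, 18.5 and 18.2 FPM in control cells against 0.0252, 0.0183 and 0.01804 FPM, and it was at 0, 0 and 0 FPM in MUNC genomic cells. The calcium-regulated phosphatase gene Ppef1 and the membrane glycoprotein gene Gpnmb fell by 4.01 and 3.93.

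The 24 genes were chosen on the MUNC spliced libraries that enter each of the next comparisons, so nothing is read from their share of calls there. Between MUNC spliced and MUNC genomic cells in growth medium, 20 of them differed, in a comparison in which 35.8% of all tested genes were called. The 4 genes without such a call were Sox11, Cd200, Perp and Gpnmb. For 8 of the 24 the difference from control changed between growth and differentiation medium, a test in which 14.4% of all tested genes were called, 7.43% with a higher and 6.94% with a lower difference after 3 days. Of these 8, Sfmbt1 and Sulf2 were also called on the recovered reads in edgeR and in DESeq2, and the other 6 were not.

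**Figure D2:**
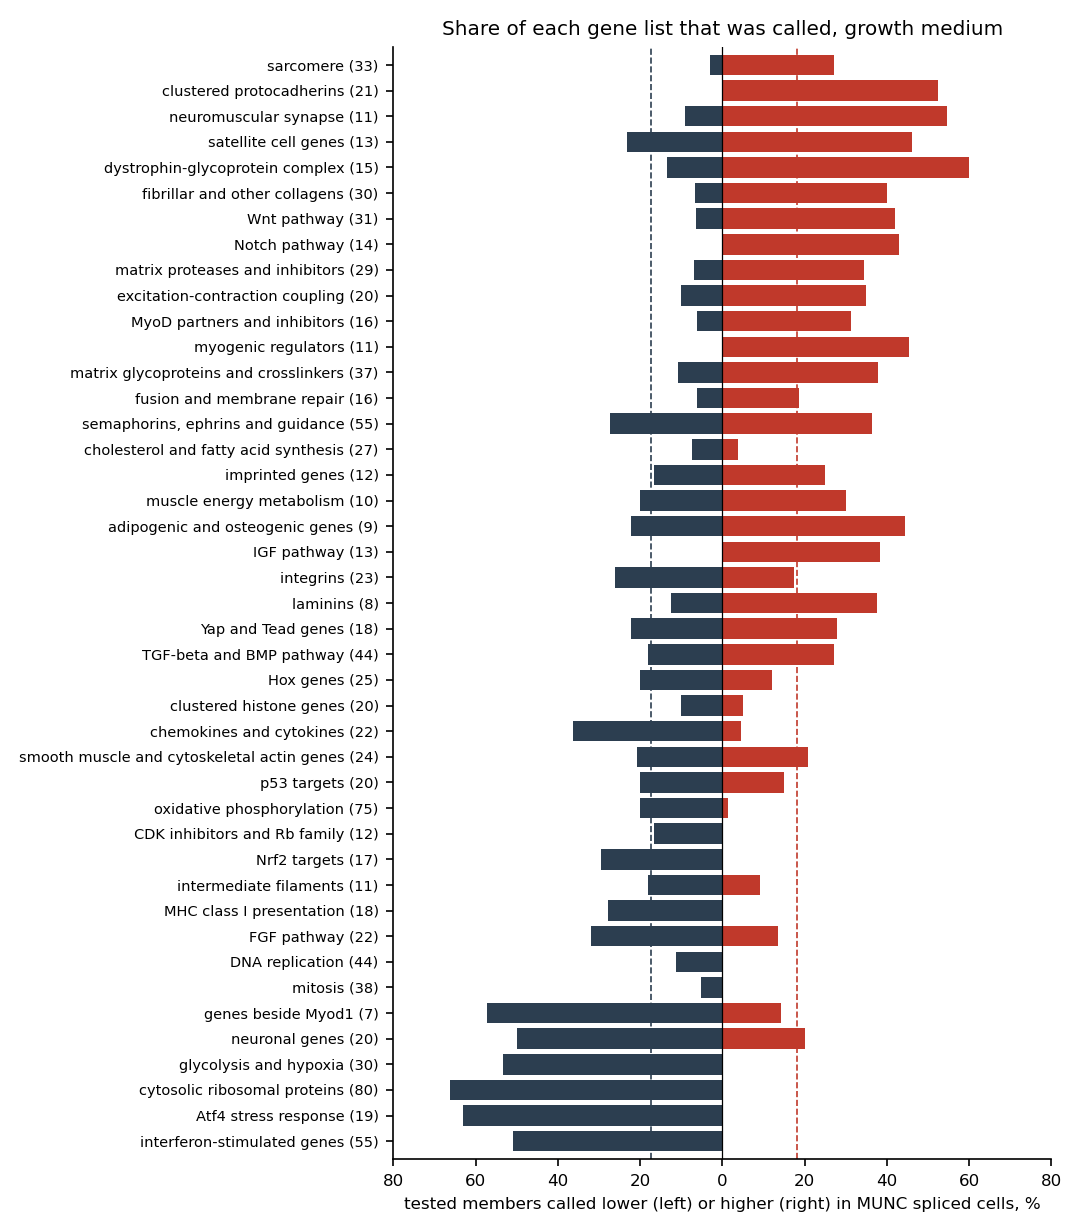
Share of the tested members of each of 43 gene lists called higher (right) or lower (left) in MUNC spliced cells, in percent, with the number tested in parentheses and lists ordered by median difference. Dashed lines mark the 18.2% and 17.3% of all tested genes that were called higher and lower. Protocadherin, synapse, dystrophin complex and Wnt lists reach well to the right of the line, and interferon, ribosomal protein, Atf4 and glycolysis lists to the left.

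Myogenic regulators were called higher in 5 of 11 tested members and lower in 0, with a median of 0.27. Myod1 had 0.0854, 0 and 0 FPM in the control libraries and 17.9, 8.84 and 10.5 FPM in the MUNC spliced libraries (log2 difference 3.65, SE 0.41, adjusted p = 4.59e-06). Myog had 0.0683, 0.0177 and 0 FPM against 9.72, 12.6 and 5.48 FPM (log2 difference 3.25, SE 0.45, adjusted p = 4.46e-05). Control cells thus had next to no Myod1 or Myog reads, and in this bulk measurement fewer expressing cells and less RNA per cell cannot be told apart. Myf5, the earlier determination factor, was at 67.8, 81.5 and 65.99 FPM and 53.2, 63.8 and 59.01 FPM and missed the threshold (log2 difference -0.28, adjusted p = 0.210), although the libraries did not overlap. Myf6 was below the filter, at 0.4097, 0.2301 and 0.0307 FPM and 0.151, 0.422 and 0.0902 FPM. Myod1 was also above control in MUNC genomic cells, at 1.66, 2.87 and 6.99 FPM, but lower than in MUNC spliced cells (difference 1.57, adjusted p = 0.00685), a call that was lost in DESeq2 on the recovered reads (1.65, adjusted p = 0.111), and Myog stood there at 0.143, 0.101 and 0 FPM (difference 3.18, adjusted p = 4.10e-05). The count of higher regulators was 3 without MUNC spliced replicate 2.

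Eya4, a transcriptional coactivator of muscle progenitors, rose from 29.2, 33.1 and 25.5 FPM to 120.1, 127 and 101 FPM (log2 difference 1.95). Of the Mef2 factors Mef2a was called higher, and Mef2d did not pass (log2 difference -0.04, adjusted p = 0.877). Partners and inhibitors of MyoD were called higher in 5 and lower in 1 of 16 tested members. The inhibitors Id2 and Id3 rose by 1.63 and 1.61, the latter from 36.02, 16.5 and 44.2 FPM to 114, 60.7 and 116 FPM, and Id1 did not pass (log2 difference 0.83, adjusted p = 0.225). The Id2 call was lost without control replicate 2 (adjusted p = 0.0965) or MUNC spliced replicate 1 (adjusted p = 0.0872). Heyl, a Notch target and repressor, went from 0.137, 0.0531 and 0 FPM to 8.25, 13.6 and 2.399 FPM. None of the 3 E protein genes was called, with Tcf3 at 0.11 and Tcf12 at 0.25 on the log2 scale, though Tcf12 passed with the replicate number as a block (adjusted p = 0.0154).

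**Figure D3:**
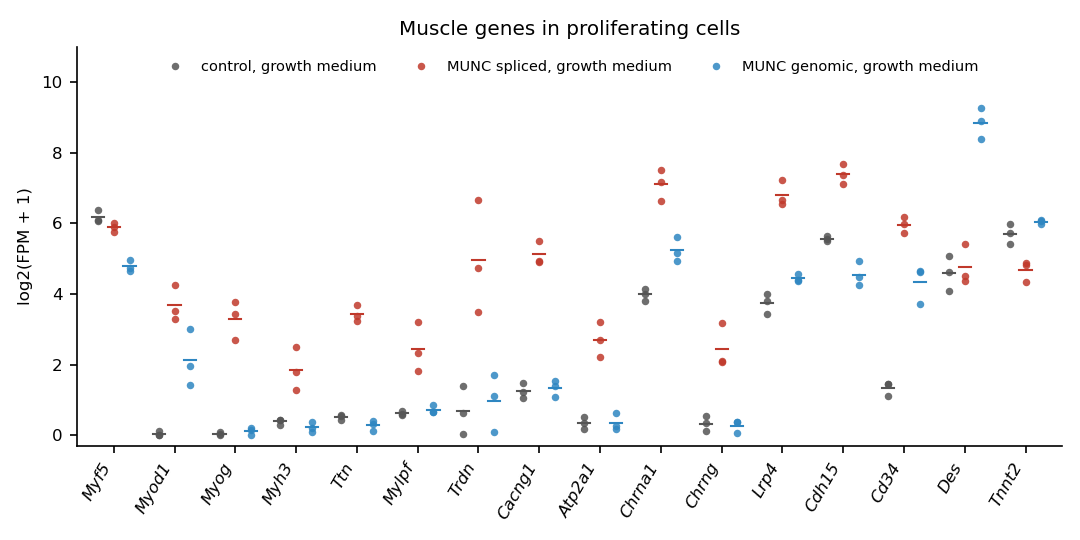
Level of 16 muscle genes, as log2(FPM + 1), in each growth medium library of control, MUNC spliced and MUNC genomic cells. Points are libraries and short lines are group means (n = 3). Myod1, Myog, Ttn, Trdn, Chrna1 and Cd34 libraries of MUNC spliced cells lie above all control libraries, Tnnt2 lies below, and Des overlaps.

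Genes of the neuromuscular synapse were called higher in 6 and lower in 1 of 11 tested members, with a median of 0.50. Chrna1 and Chrng encode the alpha and the fetal gamma subunit of the muscle acetylcholine receptor, and both are textbook MyoD and myogenin targets. Their upstream sequences are shown because each holds 2 copies of the E-box CAGCTG, which reads the same on both strands and is given in capitals. The sequences are RefSeq's 250 bases before the gene start on GRCm38.p6, printed 5′ to 3′ on the gene's strand, at chr2:73580339-73580588, minus strand, and chr1:87205561-87205810, plus strand.
Chrna1: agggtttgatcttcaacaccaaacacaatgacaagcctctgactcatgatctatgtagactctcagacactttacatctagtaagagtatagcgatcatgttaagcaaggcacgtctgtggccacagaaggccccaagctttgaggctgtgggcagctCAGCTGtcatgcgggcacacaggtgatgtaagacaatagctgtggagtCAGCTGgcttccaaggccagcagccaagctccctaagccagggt
Chrng: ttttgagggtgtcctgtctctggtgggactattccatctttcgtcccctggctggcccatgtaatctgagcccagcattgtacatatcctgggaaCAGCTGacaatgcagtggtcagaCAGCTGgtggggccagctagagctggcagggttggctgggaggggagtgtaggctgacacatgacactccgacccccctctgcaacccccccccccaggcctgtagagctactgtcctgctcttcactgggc
In Chrna1 the copies end 86 and 38 bases before the start, and in Chrng 149 and 126 bases before it. CAGCTG occurred within the same window in 14.7% of the 27025 genes of the promoter table and in 20 of the 66 genes of the muscle lists with a matched promoter (30.3%), among them 6 of the 21 that were called higher. A match describes these letters only.

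Chrna1 stood at 13.01, 15.1 and 16.7 FPM in control and at 143, 182 and 98.4 FPM in MUNC spliced libraries, a rise by 3.12 (SE 0.28, adjusted p = 2.80e-07). Chrng rose by 2.12 (SE 0.43, adjusted p = 0.00124), from 0.273, 0.442 and 0.0768 FPM to 3.18, 8.07 and 3.25 FPM. The beta subunit gene went the other way, since Chrnb1 fell by 1.13 (adjusted p = 0.00217), from 46.7, 65.7 and 76.1 FPM to 19.6, 31.6 and 34.1 FPM. The delta subunit gene Chrnd did not pass, with overlapping libraries at 12.5, 21.5 and 9.08 FPM and 3.33, 12.3 and 5.16 FPM. Of the assembly machinery, Lrp4, the agrin receptor, rose by 3.06 from 12.8, 15.04 and 9.82 FPM to 100.1, 149 and 91.9 FPM. Rapsn, which clusters the receptor, and Musk, its kinase, rose by 1.09 and 1.20. Musk was higher still in MUNC genomic cells, at 15.9, 19.7 and 12.2 FPM against 1.46, 1.65 and 1.23 FPM in MUNC spliced cells (difference -2.77, adjusted p = 1.68e-09).

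Sarcomere genes were called higher in 9 and lower in 1 of 33 tested members, with a median of 0.61, and 21 of the 33 had MUNC spliced libraries above all control libraries, beside 21.8% of all tested genes. The number called higher was 20 in edgeR and 20 in DESeq2 on the recovered reads, 20 with a pseudocount of 0.1 FPM and 18 when only the 6 libraries entered the fit, and with 1 library left out it was 6 to 9, with 6 without control replicate 1 and 6 without MUNC spliced replicate 2. Ttn, the giant protein that spans the sarcomere from Z-disc to M-band, went from 0.478, 0.4601 and 0.353 FPM to 8.38, 11.9 and 9.29 FPM (log2 difference 2.91, adjusted p = 0.000209). The fast myosin light chain gene Mylpf and the fast troponin T gene Tnnt3 rose by 1.83 and 1.86. The Tnnt3 call was lost without MUNC spliced replicate 2 (adjusted p = 0.0511). Myh3, embryonic myosin heavy chain, had 0.358, 0.354 and 0.215 FPM and 1.44, 2.47 and 4.64 FPM, with a difference of 1.47 (SE 0.48, adjusted p = 0.0259) whose call was lost without control replicate 1 (adjusted p = 0.0550), control replicate 2 (adjusted p = 0.0516), control replicate 3 (adjusted p = 0.0670), MUNC spliced replicate 2 (adjusted p = 0.0573) or MUNC spliced replicate 3 (adjusted p = 0.103). Reads of the clustered myosin heavy chain genes can be hard to assign to 1 copy. Tnnt2, cardiac troponin T, which is also expressed in immature skeletal muscle, was the 1 member called lower, from 42.03, 51.5 and 62.6 FPM to 19.3, 27.2 and 28.5 FPM (adjusted p = 0.0457), and its call was lost without any 1 of the 6 libraries, with an adjusted p of 0.0541 to 0.143.

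Of the structural muscle genes, several did not pass. Des, the muscle intermediate filament, had overlapping libraries at 23.9, 32.7 and 16.01 FPM and 19.5, 41.998 and 21.97 FPM, and stood at 475, 622 and 332 FPM in MUNC genomic cells (difference between the MUNC lines -4.08, adjusted p = 8.75e-08). Acta1, skeletal alpha-actin, also overlapped at 19.7, 11.2 and 31.04 FPM and 5.55, 4.82 and 20.5 FPM. The fusogen gene Mymk stood at 0, 0 and 0.0154 FPM in control and 0.681, 1.06 and 1.12 FPM in MUNC spliced libraries (log2 difference 0.95, adjusted p = 0.0710). Mymx stood at 0.0683, 0 and 0 FPM and 0.353, 1.0999 and 0.649 FPM (log2 difference 0.71, adjusted p = 0.0592). Neither was called although the libraries did not overlap, both were called in edgeR on the recovered reads, and Mymx passed with the replicate number as a block (adjusted p = 0.0421). Fusion and membrane repair genes were called higher in 3 and lower in 1 of 16 tested members, and in 6 and 1 in edgeR on the recovered reads. The muscle cadherin gene Cdh15 led that list, at 44.3, 48.7 and 45.7 FPM and 139, 207 and 164 FPM (log2 difference 1.83, adjusted p = 1.59e-05), with 18.1, 29.3 and 21.2 FPM in MUNC genomic cells.

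Excitation-contraction coupling genes were called higher in 7 and lower in 2 of 20 tested members, with a median of 0.31. Trdn, the triadic anchor of the calcium release channel, rose by 4.29 from 1.605, 0.531 and 0.0154 FPM to 25.9, 99.9 and 10.2 FPM, with replicate 2 far above the other MUNC spliced libraries. Cacng1, the gamma subunit of the muscle calcium channel, rose by 3.86 from 1.81, 1.35 and 1.08 FPM to 29.7, 44.4 and 29.2 FPM, and its MUNC genomic level was 1.56 ± 0.393 FPM (SD, n = 3). Atp2a1, the calcium pump of fast fibres, rose by 2.37. The muscle chloride channel gene Clcn1 fell by 1.13 (adjusted p = 3.56e-06) and the junctophilin gene Jph2 by 0.86 (adjusted p = 0.00104), each without overlap between the groups.

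The dystrophin-glycoprotein complex, which ties the cytoskeleton to the matrix, was called higher in 9 and lower in 2 of 15 tested members. Sgca, the alpha sarcoglycan of muscle, rose by 1.18, while Sgcd, the delta sarcoglycan, fell by 0.70 and Sgce, the epsilon form, by 4.28. The 9 calls became 5 without control replicate 1, 5 without control replicate 3, 5 without MUNC spliced replicate 1 and 4 without MUNC spliced replicate 2, and 4 when only the 6 libraries were fitted. Genes linked to satellite cells, the resident stem cells of muscle, were called higher in 6 and lower in 3 of 13 tested members. Cd34, a sialomucin of quiescent satellite cells and several other progenitors, went from 1.74, 1.73 and 1.14 FPM to 71.4, 61.8 and 52.5 FPM (log2 difference 4.63, SE 0.22, adjusted p = 1.75e-10). Spry1, a feedback inhibitor of receptor tyrosine kinases, went from 0.0171, 0 and 0 FPM to 5.15, 11.2 and 5.14 FPM. The hepatocyte growth factor receptor gene Met fell by 1.05, from 176, 225 and 255 FPM to 84.95, 100.5 and 132 FPM, and the syndecan gene Sdc4 by 0.70. Muscle energy metabolism genes were called higher in 3 and lower in 2 of 10, Car3 and the creatine kinase gene Ckb (log2 difference 1.33) among the former and the enolase gene Eno3, which fell by 0.77, among the latter.

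Smooth muscle and cytoskeletal actin genes had 5 called higher and 5 lower of 24 tested members. Each share was 20.8%, close to the background. Synpo2, an actin bundling protein, rose by 2.93 from 7.56, 6.37 and 6.01 FPM to 63.3, 53.8 and 54.2 FPM, and the myosin light chain kinase gene Mylk by 2.71. Cnn1, calponin of smooth muscle, fell by 2.65 from 16.6, 11.9 and 23.1 FPM to 2.398, 1.19 and 1.98 FPM. The 5 higher calls became 3 without control replicate 2, 3 without MUNC spliced replicate 1 and 3 without MUNC spliced replicate 3, and the 5 lower calls 2 without control replicate 3, 3 without MUNC spliced replicate 2 and 3 without MUNC spliced replicate 3. Acta2 and Tagln, further smooth muscle genes, had overlapping libraries.

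Neuronal genes were called lower in 10 and higher in 4 of 20 tested members, with a median of -0.47. Nefm, Nefl and the peripherin gene Prph all fell, the last by 1.38. Among the 4 that rose were Gfra1, a receptor for glial cell line-derived neurotrophic factor, by 2.90, and the neural cell adhesion gene Ncam1, by 0.998 from 41.9, 64.3 and 60.3 FPM to 95.7, 121 and 115 FPM. Uchl1, a ubiquitin hydrolase, had 0 reads in every control library and 1.24, 1.81 and 1.37 FPM in MUNC spliced libraries, at least 27.8-fold higher than the level that 3 reads per library would give. The summed level of 6 neuronal cell type markers was at most 1.22 FPM in control and 0.278 FPM in MUNC spliced libraries. Intermediate filament genes were called higher in 1 and lower in 2 of 11 tested members. Synm, synemin, rose by 2.54, and Nes, nestin of progenitor cells, fell by 0.98 from 1409.8, 1752 and 1677 FPM to 735, 916 and 800.3 FPM.

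Collagen genes were called higher in 12 and lower in 2 of 30 tested members, with a median of 0.41. Col6a1 and Col6a2, chains of the microfibrillar collagen of the muscle basement zone, rose by 2.20 and 3.11. Col6a2 was at 68.05, 18.6 and 14.4 FPM and 229, 332 and 173 FPM, with control replicate 1 above the other controls, and Col6a1 at 193, 84.2 and 47.6 FPM and 391, 668 and 297 FPM. Col8a2, a short-chain collagen, went from 0, 0 and 0.0154 FPM to 9.36, 9.84 and 1.91 FPM. The basement membrane chains Col4a1 and Col4a2 fell by 0.995 and 0.85, the former from 484, 597 and 673 FPM to 323, 283 and 267 FPM, and were higher in MUNC genomic cells, at 914, 1002 and 991 FPM for Col4a1 (difference -1.73, adjusted p = 2.06e-08). The abundant fibrillar chain gene Col1a1 overlapped between the groups and missed the threshold (log2 difference 0.81, adjusted p = 0.0549), and it passed with the replicate number as a block (adjusted p = 0.0338).

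Matrix glycoproteins and crosslinkers were called higher in 14 and lower in 4 of 37 tested members, and 6 of the 9 proteoglycans were among the former. Prelp, a leucine-rich proteoglycan that anchors basement membranes, went from 0.102, 0 and 0.0154 FPM to 42.5, 19.7 and 15.4 FPM (log2 difference 4.56, SE 0.26, adjusted p = 1.76e-09). Sparc, a collagen-binding matricellular protein, rose by 1.05 from 2164, 2109 and 1500.2 FPM to 4018, 4706 and 3185 FPM. Thbs2, a thrombospondin that inhibits angiogenesis, fell by 2.41 from 432, 488 and 574 FPM to 114, 65.4 and 106 FPM, while its relative Thbs1 had 1160.0, 1648 and 1366 FPM and 1904, 2125 and 1920.3 FPM and missed the threshold (adjusted p = 0.0670), passing with the replicate number as a block (adjusted p = 0.0299). Fibronectin, Fn1, overlapped between the groups.

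Matrix proteases and their inhibitors were called higher in 10 and lower in 2 of 29 tested members. Adamts2, which trims procollagen, rose by 2.66 from 17.98, 13.4 and 8.405 FPM to 81.97, 107 and 71.9 FPM, Adamts12 by 1.93 and the membrane-type protease gene Mmp15 by 2.19. The inhibitor gene Timp3 rose by 1.77 from 82.03, 71.9 and 138 FPM to 355, 211 and 436 FPM. A list of integrin and integrin-related genes had 4 called higher and 6 lower of 23, and of these Itgbl1, which was higher, and Itgb1bp1, which was lower, do not encode integrin subunits. Itga6 and Itgb4, which pair into the laminin receptor of hemidesmosomes, both fell, Itga6 by 3.13 from 152, 235 and 199.8 FPM to 20.7, 15.6 and 29.02 FPM and Itgb4 by 2.43 from 25.1, 19.9 and 15.5 FPM to 2.83, 3.74 and 2.15 FPM. The counts for this list became 2 higher without MUNC spliced replicate 2 and 3 lower when only the 6 libraries were fitted. Laminin genes were called higher in 3 and lower in 1 of 8, with Lamb2, of the synaptic basal lamina, up by 0.69 and Lamb1 down by 0.81 (adjusted p = 0.00333).

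Clustered protocadherins, cell surface proteins whose gene choice gives neurons individual identities, were called higher in 11 and lower in 0 of 21 tested members, with a median of 0.56. Pcdhb14, Pcdhb20 and Pcdhb22 rose by 2.04, 1.48 and 1.57. Pcdhb14 had 1.49, 1.13 and 0.937 FPM in control and 6.16, 10.96 and 7.304 FPM in MUNC spliced libraries, without overlap. All tested members lie in adjacent gene clusters on chromosome 18 and are similar in sequence, so the split of reads among them is uncertain.

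Guidance genes changed often but in both directions, with 20 called higher and 15 lower of 55 tested members. Of 19 semaphorins, 5 were higher and 7 lower, and of 9 plexins and neuropilins, their receptors, 5 were higher and 0 lower. Sema6d fell by 1.82 from 4.46, 6.26 and 7.099 FPM to 1.31, 0.788 and 0.757 FPM, against the rise of Sema6a. Of 10 Eph receptors, 5 were higher and 3 lower, and of 8 ephrins, their ligands, 1 was higher and 2 lower. The receptor gene Epha1 fell by 2.54 from 14.1, 23.6 and 6.07 FPM to 1.36, 1.43 and 1.32 FPM, and the ligand gene Efna5 by 1.67 from 24.4, 22.4 and 18.4 FPM to 6.54, 6.196 and 5.54 FPM.

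The Wnt pathway was called higher in 13 and lower in 2 of 31 tested members, with a median of 0.39. Among the 13 receptor genes 8 were higher and 0 lower. Fzd8 had 0 reads in every control and every MUNC genomic library and 12.6, 10.9 and 10.6 FPM in MUNC spliced libraries (log2 difference 3.62, adjusted p = 4.86e-14), at least 214-fold higher than 3 reads per library would give. Fzd1 rose by 2.86 from 18.8, 10.1 and 12.4 FPM to 115, 109.9 and 85.5 FPM, and Ror2, a receptor of noncanonical Wnt signals, went from 0.0341, 0.0531 and 0.0615 FPM to 3.89, 5.55 and 5.99 FPM. The secreted antagonist gene Dkk2 fell by 3.34 from 11.2, 14.1 and 11.7 FPM to 0.202, 0.6599 and 0.144 FPM, and it was also low in MUNC genomic cells, at 0.544, 1.11 and 0.4201 FPM.

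TGF-beta and BMP genes were called higher in 12 and lower in 8 of 44 tested members, including 6 higher and 0 lower of 12 ligands and 1 higher and 3 lower of 12 receptors. Bmp4 went from 1.35, 1.03 and 0.615 FPM to 42.1, 22.5 and 16.1 FPM (log2 difference 3.71, SE 0.25, adjusted p = 1.37e-08), and 0, 0 and 0.021005 FPM was found in MUNC genomic libraries. Tgfb2 and Tgfb3 rose by 1.64 and 1.12. The antagonists were split, as Fst, follistatin, which binds activins and myostatin, rose by 2.78 from 0.512, 0.195 and 0.2305 FPM to 18.8, 3.54 and 6.96 FPM while Grem1 fell.

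IGF genes were called higher in 5 and lower in 0 of 13 tested members, a count that was 3 without control replicate 2 and 3 without MUNC spliced replicate 1. Igfbp5, the main IGF binding protein of differentiating myoblasts, rose by 4.60 from 35.5, 47.7 and 6.36 FPM to 588, 1138 and 276 FPM, with replicate 3 the lowest in both groups. Igfbp3 had 0 reads in every control library and 8.58, 11.4 and 6.96 FPM in MUNC spliced libraries, at least 169-fold higher than 3 reads per library would give. The growth factor gene Igf2 rose by 2.26 from 0.188, 0.106 and 0.154 FPM to 3.63, 6.71 and 3.64 FPM, and its receptor tyrosine kinase gene Igf1r did not pass (log2 difference -0.06, adjusted p = 0.789).

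Notch genes were called higher in 6 and lower in 0 of 14 tested members, with a median of 0.38. The receptor gene Notch3 rose by 1.83 from 42.95, 67.7 and 23.5 FPM to 107, 239.8 and 127 FPM, next to the target gene Heyl, while Notch1, Jag1 and Hes1 did not pass, with log2 differences of 0.41, 0.18 and -0.11. FGF genes had 3 called higher and 7 lower of 22 tested members, and 5 of the 11 feedback and target genes were lower. Etv4, a transcription factor induced by FGF signals, fell by 2.40 from 85.3, 79.99 and 106 FPM to 18.98, 9.697 and 22.9 FPM, Dusp4, a MAP kinase phosphatase, by 1.74 and the inhibitor gene Spry4 by 1.70, against the rise of its relative Spry1. Yap and Tead genes were called higher in 5 and lower in 4 of 18. Vgll2, a muscle cofactor of Tead factors, had 0 reads in every control library and 14.1, 10.1 and 14.1 FPM in MUNC spliced libraries (log2 difference 3.77, at least 241-fold higher than 3 reads per library would give), and Vgll4 rose by 0.81. The Yap target Ankrd1 fell by 0.69, a call lost without control replicate 3 (adjusted p = 0.0537) or MUNC spliced replicate 2 (adjusted p = 0.0834). The 5 higher calls became 2 without control replicate 1, and the 4 lower calls 2 without control replicate 3 and 2 without MUNC spliced replicate 2.

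Interferon-stimulated genes are switched on by a complex that holds Stat2 and Irf9 and binds the interferon-stimulated response element. They were called lower in 28 of 55 tested members and higher in 0, with a median of -0.96. Upstream sequences of 3 members that fell are shown with the element's core in capitals, searched as GAAA, any 2 bases and GAAA on either strand, overlapping copies joined. They are RefSeq's 250 bases before the start on GRCm38.p6, printed 5′ to 3′ on the gene's strand, at chr19:34640639-34640888, plus strand, chr4:156200819-156201068, minus strand, and chr7:104465194-104465443, minus strand.
Ifit1: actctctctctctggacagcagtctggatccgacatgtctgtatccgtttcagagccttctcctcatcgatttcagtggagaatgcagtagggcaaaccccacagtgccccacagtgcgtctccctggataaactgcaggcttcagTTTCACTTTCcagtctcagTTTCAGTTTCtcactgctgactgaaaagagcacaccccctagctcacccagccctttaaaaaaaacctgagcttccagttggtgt
Isg15: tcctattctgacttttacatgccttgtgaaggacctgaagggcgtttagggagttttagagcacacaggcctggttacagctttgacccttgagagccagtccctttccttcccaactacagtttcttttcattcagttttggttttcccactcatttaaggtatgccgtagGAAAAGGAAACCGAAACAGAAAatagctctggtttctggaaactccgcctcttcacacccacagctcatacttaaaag
Trim30a: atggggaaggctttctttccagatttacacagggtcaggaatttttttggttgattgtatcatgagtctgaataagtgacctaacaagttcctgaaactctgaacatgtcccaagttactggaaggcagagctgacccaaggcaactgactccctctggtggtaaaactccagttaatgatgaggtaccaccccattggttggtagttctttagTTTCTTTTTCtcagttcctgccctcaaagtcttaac
The core occurred in this window in 3.46% of the 27025 genes of the promoter table, in 20 of the 40 interferon-stimulated genes with a matched promoter and in 13 of the 23 of these that were called lower. These are matches of letters and show no binding.

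Ifit1, an antiviral RNA-binding protein, had 63.9, 174 and 31.4 FPM in control and 5.86, 34.6 and 5.48 FPM in MUNC spliced libraries, a fall by 2.62 (SE 0.60, adjusted p = 0.00320). Isg15, a ubiquitin-like modifier, fell by 2.24 (SE 0.43, adjusted p = 0.000762), from 19.5, 55.5 and 13.5 FPM to 2.68, 9.33 and 3.17 FPM. Replicate 2 was the highest library of both groups for each of these genes, so that Ifit1 overlapped between MUNC spliced replicate 2 and control replicate 3 although the control library was higher within each replicate number. Bst2, tetherin, fell by 2.45 from 27.9, 54.03 and 24.4 FPM to 4.14, 7.13 and 4.91 FPM, and Trim30a, a tripartite motif protein, by 3.21 from 23.8, 20.5 and 2.64 FPM to 0.202, 0.678 and 0.216 FPM, both without overlap. Of the 9 Oas genes, which encode sensors of double-stranded RNA, 8 were called lower, among them Oas3 by 1.96 (SE 0.45, adjusted p = 0.00302), and reads of these close copies can be hard to assign.

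The 56 listed genes, of which 55 were tested, summed to 1409, 2729 and 1106 FPM in the control libraries and to 990.3, 1350.5 and 857 FPM in the MUNC spliced libraries. The number called lower was 15 without control replicate 2, 16 without MUNC spliced replicate 1, 18 without MUNC spliced replicate 3, 18 without the filter on low values and 11 when only the 6 libraries were fitted, and it was 33 with the replicate number as a block. Control and MUNC spliced libraries did not overlap for 13 of the 55, with MUNC spliced cells lower, beside 21.7% of all tested genes. Irf9 was called lower, a fall by 0.82 (adjusted p = 0.0181), with overlapping libraries at 16.4, 39.01 and 19.3 FPM in control and 10.4, 17.6 and 11.1 FPM in MUNC spliced cells. The Irf9 call was lost without control replicate 2 (adjusted p = 0.0919), MUNC spliced replicate 1 (adjusted p = 0.0737) or MUNC spliced replicate 3 (adjusted p = 0.0582). It was also lost when only the 6 libraries were fitted (adjusted p = 0.109). Stat2 overlapped between the groups, at 28.9, 96.3 and 31.1 FPM and 30.97, 57.03 and 35.2 FPM, and did not pass (adjusted p = 0.757), and the receptor gene Ifnar1 rose by 0.41 (adjusted p = 0.00302). The interferon gene Ifnb1 was near 0, at 0.0512, 0.0177 and 0 FPM in control and 0.0757, 0.0917 and 0 FPM in MUNC spliced libraries. Ifit1 was lower still in MUNC genomic cells, at 0.787, 0.996 and 0.294 FPM (difference between the MUNC lines 2.81, adjusted p = 0.00176).

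**Figure D4:**
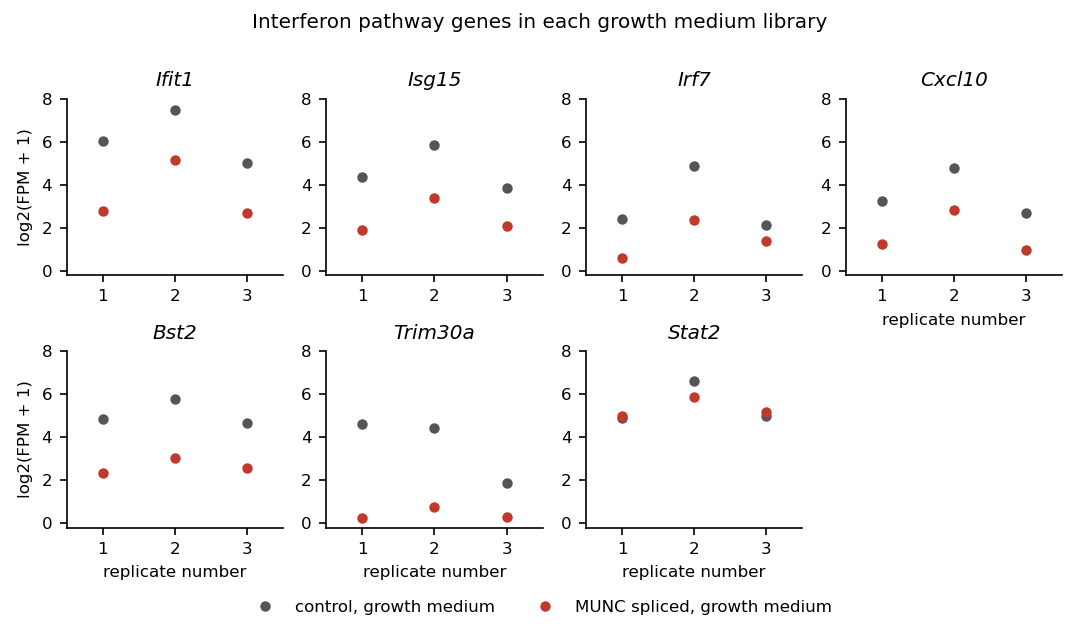
Level of 7 interferon pathway genes, as log2(FPM + 1), in the control and MUNC spliced growth medium libraries, by replicate number. Each point is 1 library. For Ifit1, Isg15, Irf7, Cxcl10, Bst2 and Trim30a the control library is above the MUNC spliced library of the same number, and Stat2 is not ordered by group.

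MHC class I presentation genes were called lower in 5 and higher in 0 of 18 tested members, with 3 lower without control replicate 2 and 3 without MUNC spliced replicate 1. Psme1, an activator subunit of the proteasome, fell by 1.27 from 74.9, 76.3 and 53.6 FPM to 25.7, 33.8 and 23.5 FPM, and the heavy chain gene H2-D1 by 0.82. Chemokine and cytokine genes were called lower in 8 and higher in 1 of 22. Ccl2, which attracts monocytes, fell by 1.66 from 129.8, 52.8 and 59.2 FPM to 45.8, 12.9 and 19.8 FPM, and Cxcl10, an interferon-induced chemokine, by 1.88 from 8.31, 25.9 and 5.44 FPM to 1.34, 6.12 and 0.956 FPM, a call that was lost when only the 6 libraries were fitted (adjusted p = 0.0623) and in DESeq2 (adjusted p = 0.0622).

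Cytosolic ribosomal protein genes were called lower in 53 of 80 tested members (66.2%), with a median of -0.50, and all 80 had a negative difference, from -0.96 to -0.09. Rps3 stood at 1241, 946 and 1075 FPM in control and 690.4, 549 and 796 FPM in MUNC spliced libraries, a fall by 0.69 (adjusted p = 0.00459). Rpl26 and Rpl34 fell by 0.96 and 0.85. The 80 genes' median stayed negative in every scaling run, at -0.39 with equal sums and -0.32 with quantile normalization, where 31 and 22 were called lower. The count was 29 without control replicate 1, 29 without control replicate 3, 20 without MUNC spliced replicate 2 and 25 when only the 6 libraries were fitted. Ribosomal protein genes have many processed pseudogenes, to which reads can also be assigned.

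Glycolysis and hypoxia genes were called lower in 16 and higher in 0 of 30 tested members, with a median of -0.47, and 13 of the 16 belonged to the 20 tested glycolysis genes. Hk2, the hexokinase of muscle, fell by 1.21 from 90.3, 103 and 139 FPM to 45.1, 34.98 and 63.1 FPM, Ldha, lactate dehydrogenase, by 0.82 from 1809, 1631 and 1637 FPM to 999, 943 and 930.0 FPM, and Gapdh by 0.72. Ero1l, an oxidoreductase of the endoplasmic reticulum induced by hypoxia, fell by 1.72 from 122, 272 and 109.6 FPM to 41.2, 52.01 and 45.2 FPM. Oxidative phosphorylation genes were called lower in 15 and higher in 1 of 75, with a median of -0.14. That lower count was close to the background and was 6 without control replicate 1, 9 without control replicate 3 and 6 without MUNC spliced replicate 2, while it was 23 with the replicate number as a block. The split of its calls was not stable, with 7 higher and 6 lower at equal sums, 6 and 7 with quantile normalization and 6 and 6 without control replicate 1.

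Targets of Atf4, the transcription factor of the amino acid and integrated stress response, were called lower in 12 and higher in 0 of 19 tested members, with a median of -0.70, and 7 were lower without control replicate 2. Asns, asparagine synthetase, is the classic target, and its upstream sequence is shown for the composite C/EBP-ATF element TGATGNAA, in capitals, whose copy ends 15 bases before the start. It is RefSeq's 250 bases on GRCm38.p6, 5′ to 3′ on the gene's strand, at chr6:7693210-7693459, minus strand.
Asns: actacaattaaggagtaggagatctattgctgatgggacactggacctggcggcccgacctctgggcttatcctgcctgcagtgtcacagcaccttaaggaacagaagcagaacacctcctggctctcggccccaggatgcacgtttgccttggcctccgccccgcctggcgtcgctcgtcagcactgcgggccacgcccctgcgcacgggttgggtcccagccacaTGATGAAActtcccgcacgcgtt
The element, on either strand, was found in this window in 3.91% of the genes of the promoter table and in 5 of the 17 Atf4 list genes with a matched promoter, 2 of them among the 11 that were called lower. Asns fell by 1.56 (SE 0.17, adjusted p = 3.03e-06), from 425, 554 and 371 FPM to 148, 156 and 147 FPM, while MUNC genomic cells had 436, 485 and 510.2 FPM (difference between the MUNC lines -1.66, adjusted p = 9.18e-07). Phgdh, the first enzyme of serine synthesis, fell by 0.997 from 301, 313 and 302 FPM to 153, 125 and 184 FPM, and Trib3, a pseudokinase induced by stress, by 1.53. Nrf2 targets, of the oxidative stress response, were called lower in 5 and higher in 0 of 17, led by the glutathione synthesis gene Gclm (fall by 0.99). Of 27 cholesterol and fatty acid synthesis genes, 1 was higher and 2 were lower.

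**Figure D5:**
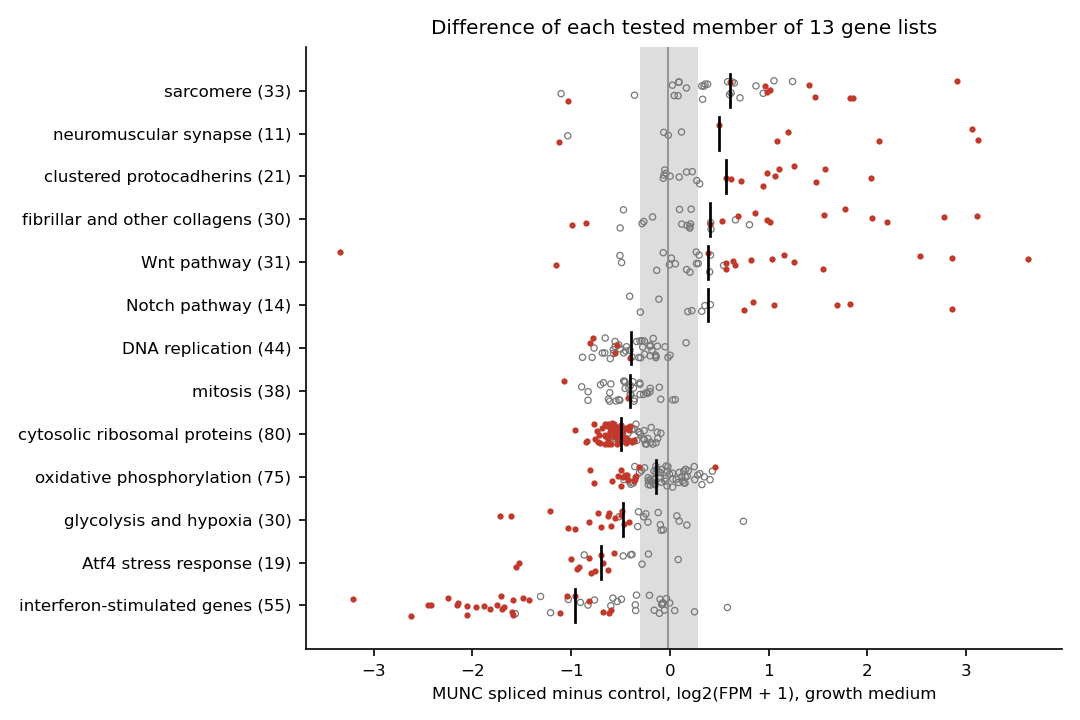
Difference between MUNC spliced and control cells in growth medium, on the log2(FPM + 1) scale, of each tested member of 13 of the 43 gene lists. Filled points were called, open points were not, black bars are list medians, and the grey band runs from the lower to the upper quartile of all tested genes (-0.30 to 0.28) around their median. All 80 ribosomal protein genes, 42 of 44 replication genes and 36 of 38 mitosis genes have negative differences, while interferon-stimulated and sarcomere genes spread widely.

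DNA replication genes had negative differences in 42 of 44 tested members, with a median of -0.39, and mitosis genes in 36 of 38, with a median of -0.41. Few of these passed the test, with 5 of 44 and 2 of 38 called lower, shares of 11.4% and 5.26% that are below the background. Groups did not overlap, with MUNC spliced libraries lower, for 17 and 23 of them, beside 21.7% of all tested genes. Mcm2, of the replicative helicase, had 172, 174 and 214 FPM and 112, 75.6 and 139.5 FPM (adjusted p = 0.0419), and 5 of the 6 left-out libraries ended its call. Mki67, a proliferation marker, had 425, 662 and 557 FPM and 391, 395 and 391 FPM without a call (adjusted p = 0.381). For replication genes the count was 0 without control replicate 3, 0 without MUNC spliced replicate 2, 2 without control replicate 1, 1 with equal sums and 11 with the replicate number as a block. For mitosis genes it was 0 without control replicate 2, without control replicate 3, without MUNC spliced replicate 2, with equal sums and without the filter on low values, and 13 when only the 6 libraries were fitted.

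Of the D cyclins, which drive entry into the cell cycle, 2 were called lower. Ccnd2, cyclin D2, fell by 2.81 (SE 0.17, adjusted p = 4.20e-09) from 89.4, 129 and 105 FPM to 11.4, 14.1 and 18.1 FPM, and MUNC genomic cells had 224, 232 and 252 FPM (difference between the MUNC lines -3.95, adjusted p = 2.51e-11). Ccnd1, cyclin D1, fell by 1.29 from 443, 490.3 and 569 FPM to 250.3, 124 and 274 FPM, and Ccnd3, cyclin D3, which is linked to muscle differentiation, did not pass (log2 difference 0.23, adjusted p = 0.189). These were the 2 lower calls of 12 tested CDK inhibitor and Rb family genes (16.7%, close to the background), of which 0 were higher. Cdkn1a, the p21 inhibitor that MyoD induces in differentiation, had overlapping libraries at 193, 177 and 163 FPM and 207, 129.8 and 148 FPM. Cdkn2a, which encodes the p16 and Arf inhibitors, had 0 reads in all 6 libraries. Targets of p53 were called higher in 3 and lower in 4 of 20 (15% and 20%), beside 18.2% and 17.3% of all tested genes. The death receptor gene Fas was up by 1.72, Perp was down, and Trp53 itself was down by 0.65. Without control replicate 2, 2 of the list were lower.

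Hox genes were called higher in 3 and lower in 5 of 25 tested members (12% and 20%), beside 18.2% and 17.3% of all tested genes. Hoxc6 was up by 0.73 and Hoxa11 down by 0.98, the latter from 36.7, 30.95 and 28.9 FPM to 18.1, 16.5 and 13.1 FPM. Clustered histone genes, most of whose transcripts lack a poly(A) tail and are poorly captured by poly(A) selection, were called higher in 1 and lower in 2 of 20. Adipogenic and osteogenic genes were called higher in 4 and lower in 2 of 9. Cebpa, a master factor of fat cells, rose by 3.06 from 0.632, 0.549 and 0.169 FPM to 13.3, 12.4 and 8.01 FPM, and the fatty acid transporter gene Cd36 by 1.87. The higher count was 2 without MUNC spliced replicate 1, and the defining adipocyte genes Adipoq and Plin1 were at most 0.0505 FPM in any of the 6 libraries. The adipocyte factor gene Pparg was called higher (log2 difference 0.58, adjusted p = 0.0384), and the adipocyte markers summed to 6.46 to 10.6 FPM in control and 8.71 to 12.9 FPM in MUNC spliced libraries. Fabp4, another of these markers, was called lower (log2 difference -0.94, adjusted p = 0.0130), a call lost without control replicate 1 (adjusted p = 0.0654). The other lower call of the list was Cebpb, which was lost without control replicate 2 (adjusted p = 0.0560) and without MUNC spliced replicate 1 or 2.

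Of the 14 genes listed beside Myod1 and MUNC on chromosome 7, 7 were tested, 1 was called higher and 4 lower. Hps5, of lysosome-related organelle biogenesis, rose by 0.33, and Gtf2h1, of the transcription factor TFIIH, Sergef and Ldha fell by 0.54, 0.55 and 0.82. The call of Gtf2h1 was lost without MUNC spliced replicate 2 (adjusted p = 0.0562), and that of Sergef without control replicate 3 (adjusted p = 0.0824) or MUNC spliced replicate 2 (adjusted p = 0.111). When only the 6 libraries were fitted, the calls of Hps5 (adjusted p = 0.0629) and Sergef (adjusted p = 0.0763) were lost. None of the 7 tested genes changed by as much as 1 on the log2 scale, against 3.65 for Myod1. The lower count was 2 without MUNC spliced replicate 2 and 2 when only the 6 libraries were fitted.

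Some of the large changes sat next to each other in the genome. Of 13776 pairs of adjacent tested genes, 12 had both genes called in the same direction with a change of at least 2 on the log2 scale, 9 pairs higher and 3 lower, and 23 of the 261 genes with a change of that size belonged to such a pair. These pairs were looked for after the data had been seen and carry no test. On chromosome 13 the leucine-rich proteoglycan genes Aspn, Omd and Ogn, within 49544443 to 49624501 on GRCm38, rose by 3.54, 3.40 and 2.27. Ogn went from 401, 459.6 and 78.9 FPM to 1461, 1809 and 630.1 FPM, and its call was lost without control replicate 3 (adjusted p = 0.0920), MUNC spliced replicate 1 (adjusted p = 0.0505) or MUNC spliced replicate 2 (adjusted p = 0.0679). Omd was at 2.17, 1.13 and 0.953 FPM and 38.7, 23.4 and 14.95 FPM, and Aspn at 20.9, 4.796 and 0.845 FPM and 102, 114 and 30.2 FPM, with control replicate 3 the lowest library for each.

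On chromosome 7 the imprinted genes H19, a noncoding RNA of the maternal allele, and Igf2, expressed from the paternal allele, rose by 2.42 and 2.26, and H19 went from 426, 440.3 and 109 FPM to 1478, 1816 and 1182 FPM. On chromosome 6 the paternally expressed genes Sgce and Peg10, whose spans lie 99 bases apart, fell by 4.28 and 4.52. Peg10 had 50.2, 39.01 and 36.3 FPM in control, 1.54, 0.532 and 0.631 FPM in MUNC spliced and 55.6, 39.7 and 52.7 FPM in MUNC genomic libraries, so the fall was seen against both other groups (difference between the MUNC lines -4.75, adjusted p = 1.79e-09). Of 12 tested imprinted genes, 3 were called higher and 2 lower.

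On chromosome 5 the only pair under this rule was Abcb1b and Crot. Abcb1a and Tmem243 on the same chromosome also fell but formed no such pair, so other tested genes lie between. Abcb1a and Abcb1b, which encode the mouse forms of the multidrug efflux pump P-glycoprotein, fell by 3.79 and 4.85. The peroxisomal carnitine acyltransferase gene Crot fell by 3.28 and Tmem243 by 3.27. Abcb1b had 978, 982 and 1261 FPM in control, 38.1, 28.5 and 42.8 FPM in MUNC spliced and 55.3, 44.4 and 69.4 FPM in MUNC genomic libraries. Crot had 737, 673 and 561 FPM, 72.3, 70.7 and 56.6 FPM and 51.6, 51.8 and 38.9 FPM in the same groups, so the control cells stood apart from both MUNC lines at these genes. Reads of the near-identical Abcb1a and Abcb1b may have been split between them. Further pairs that rose included the ectonucleotide phosphodiesterase genes Enpp1 and Enpp3 (by 2.38 and 2.74), Car3 and Car2, Col6a1 and Col6a2, Afap1l2 and Ablim1, and Ccdc170 and Esr1, the estrogen receptor gene (by 2.21 and 2.67).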

How the data were processed

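Poly(A) RNA of 18 C2C12 libraries, 3 per group, was sequenced, and the 6 growth medium libraries of control and MUNC spliced cells were compared here. The submitters' processing notes name STAR, HTSeq, DESeq2 and the build mm10; versions and settings are not given in the sources used here. The table of gene values deposited by the authors is called FPKM in the labels, but every value is a whole multiple of what 1 read is worth in its library, within 0.05 read. The signal the authors deposited is thus the read count of a gene divided by a library factor and not by gene length, and levels are not compared between genes. The authors' deposited comparison table gives log2 fold changes and adjusted p-values from DESeq2, per the file headers, and was used only to count shared calls. A deposited score column was not needed. Identifiers were matched to symbols with GENCODE M21 for 34490 of 35275 genes, and 27 symbols that the authors' table had turned into dates were not used as names.

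All 18 libraries entered 1 limma fit (version 3.58.1, R 4.3.3, empirical Bayes with trend, 12 residual degrees of freedom) on log2(FPM + 1), which understates changes of low genes, over the 13869 genes with at least 0.5 FPM in at least 3 libraries. P-values were adjusted by Benjamini and Hochberg over all these genes, and genes under 0.05 were called. The fit was tested on simulated data. Differences are on the log2(FPM + 1) scale unless a ratio is named, and ratios against groups at 0 used 3 reads per library as the floor, which covers counting error only. Alternatives were edgeR 4.0.16 and DESeq2 1.42.0 on the recovered reads (100% of values whole), which called 5120 and 5452 genes, other scalings, filters and pseudocounts, a fit of the compared groups alone, each library left out and the replicate number as a block. The labels call the replicates biological without saying what they share, so p-values measure only the spread between these libraries. Same-numbered control and MUNC spliced libraries deviated together, with r of 0.495 to 0.711 over 3 pairs. The 6 differently numbered pairs had r of -0.545 to -0.0434, which is partly forced, since deviations within a group sum to 0. The numbers may thus pair the libraries. The main fit did not use them, and its calls and p-values ignore any pairing, which entered only in the alternative fit with the block.

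Groups were taken from the titles, since the source names do not match the medium for some libraries, and a fit without the MUNC spliced libraries called myotubes there was added after the data had been seen. Members and gene lists were chosen with earlier results of these data known. The genes named are Myod1, Myf5, Myog, Myf6, Myh3 and Pax7, the 12 largest rises and falls among called genes without overlap and with at least 5 FPM in the higher group, and up to 3 rises and 3 falls per list with at least 1 FPM. Uncalled list members are given by value to complete a family. Musk, Rapsn, Isg15, Oas3, Rps3, Gapdh, Sparc, Timp3, Tgfb2, Tgfb3, Sfmbt2, Mef2a, Ifnar1, Irf9, Pdgfra, Pparg, Prph, Abcb1a, Tmem243 and the adjacent gene pairs fall outside this rule and were chosen after their values were seen.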

Additional observations from a re-analysis of the deposited data

Results flagged for a closer look

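For 8 of the 24 genes with the largest changes, the difference between MUNC spliced and control cells was not the same in growth medium and after 3 days of differentiation, by the interaction term of the limma fit. Nefm, the medium neurofilament subunit, had the largest such change, by 4.86 on the log2 scale, and Nefl changed by 2.60. In both, the fall seen in growth medium was smaller after differentiation. The falls of Ccnb1ip1 and of the imprinted gene Peg10 were likewise smaller, by 2.60 and 1.27. Fndc1 rose further, with a change of 1.71. The rises of Sfmbt1, Sox11 and Sulf2 were smaller after differentiation, with changes of -1.66, -1.71 and -1.11. Sfmbt1 kept its call in every alternative run. On the recovered reads in DESeq2 and edgeR the call was lost for Nefm (2.18, adjusted p = 0.196, and 2.44, adjusted p = 0.507), Nefl (0.69, adjusted p = 0.345, and 0.74, adjusted p = 0.432), Fndc1 (2.07, adjusted p = 0.308, and 2.06, adjusted p = 0.505) and Peg10 (0.90, adjusted p = 0.59, and 0.96, adjusted p = 0.48). For Sox11 and Ccnb1ip1 the call was lost there too and the change had the opposite sign. The Nefl call was also lost with a pseudocount of 0.1 FPM (1.02, adjusted p = 0.186). Peg10 lost its call in most other settings as well, including equal sums (adjusted p = 0.0585) and a pseudocount of 0.1 FPM (0.51, adjusted p = 0.708). When the fit held no other groups than those compared, the calls of Sox11 (adjusted p = 0.06), Sulf2 (adjusted p = 0.0526) and Peg10 (adjusted p = 0.1) were lost, and each of the 3 also lost its call when some single libraries were left out, with an adjusted p of up to 0.0755 for Sulf2. The cause was not tested.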

How the results depend on the processing

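Of 216 called differences given for single genes between MUNC spliced and control cells in growth medium, 179 stayed called under every change of scaling, filter, pseudocount, tool, libraries fitted or block, 169 stayed called when each library was left out, and none of the 216 changed sign. The total of 4929 ran from 3598 without MUNC spliced replicate 2 to 4704 without MUNC spliced replicate 3, the higher calls from 1902 to 2420 and the lower from 1696 to 2284, and the total was 3431 when only the 6 libraries were fitted and 2413 (1387 higher, 1026 lower) without the MUNC spliced libraries whose source name says myotubes, a setting added after the data had been seen. With the replicate number as a block it was 6458 genes (3165 higher, 3293 lower). The block ended no call named in the report, and genes that gained one are given there with its value. At a change of at least 1 on the log2 scale, 1107 genes remained, 714 higher and 393 lower.

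The count of genes whose difference changed in differentiation medium, 1993, was less stable. It was 1214 (599 higher, 615 lower) with only the compared groups, 3868 (2006 and 1862) with the replicate block, and 1063 to 2434 with 1 library left out (534 to 1232 higher, 523 to 1202 lower), lowest without the control differentiation replicate 3 and highest without its replicate 1. In edgeR 638 were lower. For Myog the change lost its call on the recovered reads and was near 0, at -0.071 in DESeq2 (adjusted p = 0.978) and 0.052 in edgeR (adjusted p = 0.993). The change had the opposite sign, without a call, for Sox11 in DESeq2 (0.97) and edgeR (0.93), and for Ccnb1ip1 in DESeq2 (-1.89) and edgeR (-1.51). The cause was not tested. Depth limits the low genes, since 3 reads are worth up to 0.0757 FPM.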
